A study of Mus musculus with 8 samples.

Results

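The genes described here are 10 components of transforming growth factor beta (TGF-beta) and bone morphogenetic protein (BMP) signaling. They are the ligands Tgfb1 and Gdf3, the receptors Tgfbr1 and Tgfbr2, the decoy receptor Bambi, the intracellular inhibitors Smad7 and Skil, and the target genes Id1, Id2 and Id3. They were picked by name and role, with earlier results of these data known, and all 10 were found among the 29955 gene names measured. Because genotype results were known when the genes were picked, the genotype counts below describe these genes and are not independent evidence about the pathway.

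TGF-beta family ligands bind pairs of receptor kinases on the cell surface, and the receptors phosphorylate Smad proteins that enter the nucleus with Smad4 and change transcription. The pathway is held back by its own products, among them Smad7 and Skil, while the Id genes are classic targets of the BMP branch and encode proteins that block basic helix-loop-helix transcription factors. In bone marrow, TGF-beta is best known for keeping hematopoietic stem cells quiescent.

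RNA sequencing was done on 8 libraries of sorted mouse bone marrow cells, 2 in each of 4 groups. LSK cells (Lin- Sca1+ Kit+) are enriched for stem and multipotent progenitor cells, and LK cells (Lin- Kit+, without Sca1) for committed myeloid progenitors. Each population came from wild-type (WT) mice and from Ripk3-/- mice, labelled Ripk3-KO, which lack a kinase of the necroptosis pathway. The comparisons ask how expression differed between the genotypes in each population.

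All 4 groups carry the strain label CD57BL6/J, which the study's methods give as C57BL/6J. The study describes weekly low-dose X-irradiation of both genotypes with cells taken about 1 month later, but according to the labels no treatment was given, so both accounts of these mice are stated here. The labels give no age. Nothing in the sources used here says that the libraries of a group came from separate mice, so the p-values measure only the spread between these libraries, which may be technical.

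Values are given as signal, which is counts of reads per gene scaled to library size (CPM) by the trimmed mean of M-values (TMM), separately within LSK and within LK, and with no division by gene length. Whole reads could be recovered from it and came to between 9782166 and 16280811 per library. The 10 genes had between 54 and 1422 reads in each library. A gene is said to be called when the adjusted p of the limma test over all genes tested was under 0.05. Fold changes are on the log2(signal + 1) scale with the limma standard error (SE), and a negative value means lower in Ripk3-/-. With 2 libraries against 2, an exact two-sided permutation test of a single gene cannot go below 0.333, so the calls rest on the spread that limma shares across genes.

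Ripk3 itself followed the labels. Its signal was 162 and 168 in WT LSK and 3.38 and 1.08 in Ripk3-/- LSK. In LK cells it was 144 and 150 in WT and 16.2 and 10.6 in Ripk3-/-. The sort markers also followed the labels, since Kit had a signal of 223 or more in all 8 libraries, whereas Ly6a, which encodes Sca1, lay between 141 and 237 in LSK and at 4.12 or below in LK.

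Genotype coincided with sex in these libraries. Xist, transcribed from the inactive X chromosome, had a signal of 402 and 413 in WT LSK and 108 and 196 in WT LK, and of 1.27 or below in the 4 Ripk3-/- libraries. The Y-linked gene Eif2s3y was at 0 in the 4 WT libraries, at 58.1 and 98.8 in Ripk3-/- LSK and at 47.0 and 51.4 in Ripk3-/- LK. Uty and Kdm5d were likewise at 0 in the 4 WT libraries and above 0 in the 4 Ripk3-/- libraries, and Ddx3y was listed at 0 in all 8. Every genotype difference below therefore cannot be told apart from a difference between female and male cells.

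Bambi, Gdf3 and Id3 were lower in Ripk3-/- LSK cells, and Bambi, Gdf3 and Skil were lower in Ripk3-/- LK cells. No gene of the 10 was called higher in either population. In LSK, 3 of the 10 were called, all lower, where 2.16% of the 16817 genes tested were called and 1.27% were called lower. In LK, 3 of the 10 were called, all lower, where 0.473% of the 13949 genes tested were called and 0.373% were called lower. These counts of 3 fell to 0 or 1 on leaving out 1 library in either population, and in LK to 0 without the filter and to 1 with quantile normalization, while the genes called overall in LK ranged from 9 to 177 over the alternatives. An unadjusted p under 0.05 by limma was found for 5 of the 10 in LSK, as for 17.9% of all genes tested, and for 3 of the 10 in LK, as for 6.56%. The median log2 fold change of the 10 was -0.58 in LSK and -0.47 in LK, beside -0.01 and 0.01 over all genes tested. In bulk RNA, fewer cells expressing a gene and less RNA of that gene per cell cannot be told apart.

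**Figure D1:**
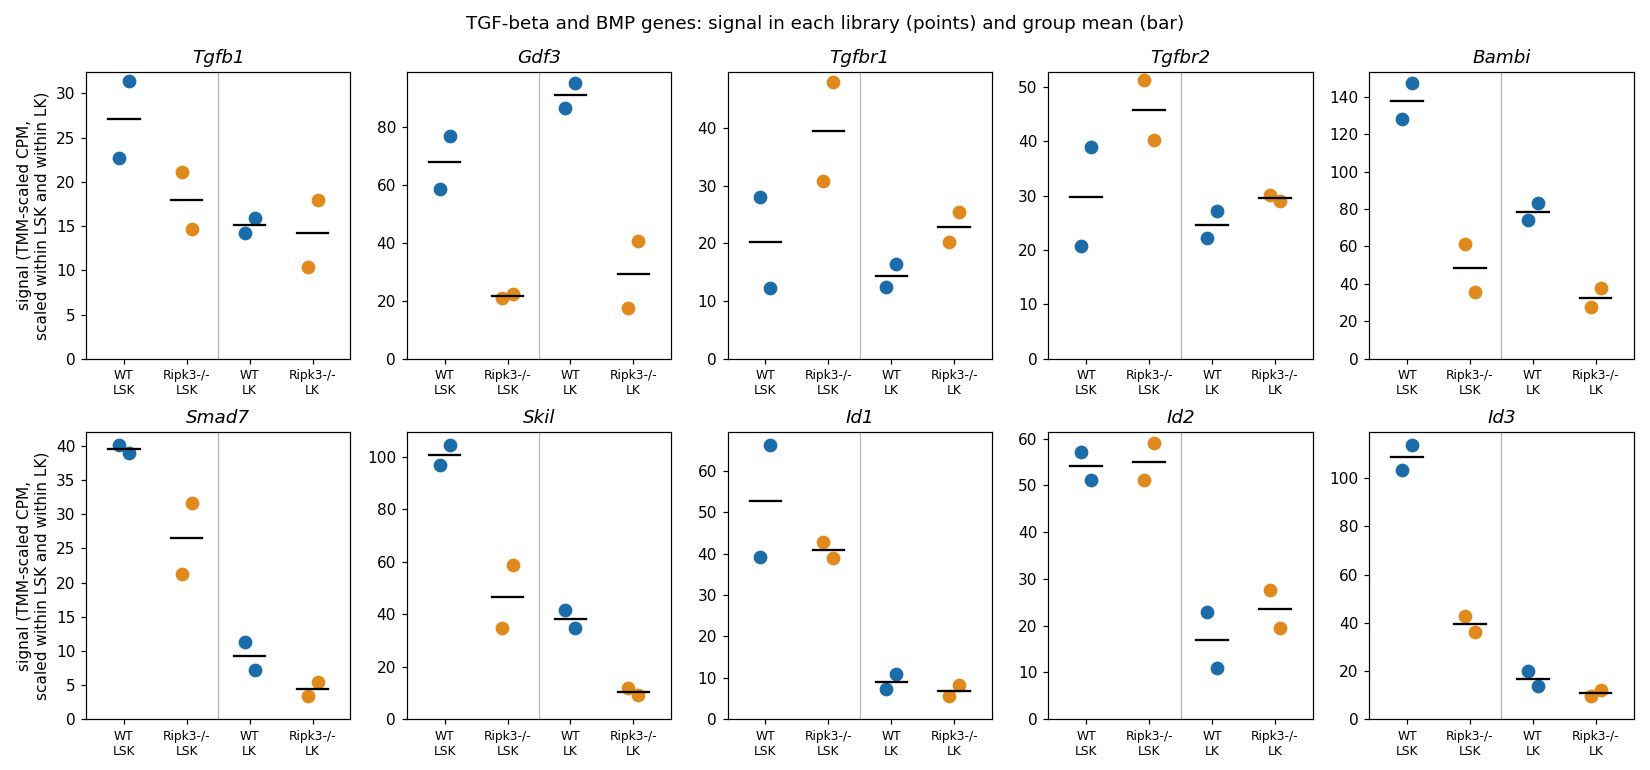
Signal (TMM-scaled CPM, scaled within LSK and within LK) of each of the 10 genes, with 1 point for each library and a bar for the mean of the 2 libraries, WT in blue and Ripk3-/- in orange. Bambi, Gdf3, Smad7, Skil and Id3 lay lower in both Ripk3-/- libraries than in both WT libraries of the same population, while Tgfbr1 and Tgfbr2 lay higher. Levels are compared within a panel and within a population.

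Tgfb1 encodes the main TGF-beta ligand of blood cells. Its signal was 22.7 and 31.4 in WT LSK and 21.1 and 14.7 in Ripk3-/- LSK. In LK it was 14.3 and 15.9 in WT and 10.4 and 18.0 in Ripk3-/-. The Ripk3-/- LSK libraries both lay below the WT ones, the nearest being 22.7 and 21.1, and in LK the Ripk3-/- libraries lay on either side of the WT pair. The log2 fold change was -0.57 in LSK (SE 0.41, limma adjusted p = 0.487) and -0.12 in LK (SE 0.42, limma adjusted p = 0.981), and neither was called. The LSK value ran from -0.82 to -0.32 on leaving out 1 library.

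Gdf3 encodes a ligand of the TGF-beta family best known from early embryos and pluripotent cells. In LSK its signal was 58.6 and 77.2 in WT and 21.0 and 22.4 in Ripk3-/-. The LK values were 86.8 and 95.3 in WT and 17.6 and 40.8 in Ripk3-/-. Both Ripk3-/- libraries were below both WT libraries in each population, and the Ripk3-/- LK pair was the most spread. Gdf3 was called lower in LSK, with a log2 fold change of -1.59 (SE 0.33, limma adjusted p = 0.012), and in LK, with -1.72 (SE 0.33, limma adjusted p = 0.0135). The LSK call was lost on leaving out any 1 of the 4 LSK libraries (limma adjusted p 0.0661 to 0.137). The LK call was lost on leaving out WT library 1 (0.248), WT library 2 (0.104) or Ripk3-/- library 1 (0.625), and in this last case the log2 fold change was -1.14. Without the filter on low values Gdf3 was not called in LSK (limma adjusted p = 0.069) or LK (0.355), nor in LK with quantile normalization (0.0532).

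Tgfbr1 encodes the type I TGF-beta receptor kinase. In LSK its signal was 28.1 and 12.3 in WT and 30.9 and 47.9 in Ripk3-/-. In LK it was 12.4 and 16.3 in WT and 20.3 and 25.5 in Ripk3-/-. Both Ripk3-/- libraries lay above both WT libraries in each population, although in LSK the nearest pair was 28.1 against 30.9. The log2 fold change was 1.0 in LSK (SE 0.41, unadjusted p = 0.0236 and adjusted p = 0.202 by limma) and 0.64 in LK (SE 0.41, limma adjusted p = 0.869), so neither was called. On leaving out 1 library the LSK value ran from 0.44 to 1.57 and the LK value from 0.45 to 0.82.

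Tgfbr2 encodes the type II receptor kinase that binds TGF-beta first. Its signal was 20.8 and 39.0 in WT LSK and 51.3 and 40.2 in Ripk3-/- LSK. Among LK cells it was 22.1 and 27.2 in WT and 30.1 and 29.0 in Ripk3-/-. The Ripk3-/- libraries were again above the WT ones in both populations, but WT LSK library 2 came close to Ripk3-/- LSK library 2. The log2 fold change was 0.65 in LSK (SE 0.34, limma adjusted p = 0.321) and 0.26 in LK (SE 0.35, limma adjusted p = 0.948), and neither passed the threshold. Leave-one-out values ran from 0.22 to 1.09 in LSK and from 0.12 to 0.40 in LK.

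Bambi encodes a membrane protein that resembles a type I receptor without the kinase domain and so acts as a decoy. In LSK its signal was 128 and 147 in WT and 61.4 and 35.7 in Ripk3-/-. The LK libraries gave 74.1 and 83.0 in WT and 27.5 and 37.6 in Ripk3-/-. The Ripk3-/- libraries did not overlap the WT libraries in either population. Bambi was called lower in LSK, with a log2 fold change of -1.53 (SE 0.28, limma adjusted p = 0.00339), and in LK, with -1.26 (SE 0.28, limma adjusted p = 0.0373). The LSK call was lost without WT library 2 (limma adjusted p = 0.0905) or Ripk3-/- library 2 (0.0892). The LK call held in 3 of 12 alternatives. It was lost on leaving out any 1 of the 4 LK libraries (limma adjusted p 0.0781 to 0.786), with edgeR on the recovered reads (adjusted p = 0.0726), and with limma under a replicate block (adjusted p = 0.0529), a pseudocount of 0.1 (0.0621), no filter (0.487) and quantile normalization (0.135).

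Smad7 encodes the inhibitory Smad that blocks the activated type I receptor. In LSK its signal was 40.2 and 39.1 in WT and 21.3 and 31.7 in Ripk3-/-. The LK values were 11.3 and 7.17 in WT and 3.42 and 5.40 in Ripk3-/-. The Ripk3-/- libraries lay below the WT libraries in both populations. The log2 fold change was -0.59 in LSK (SE 0.44, limma adjusted p = 0.503) and -0.91 in LK (SE 0.44, limma adjusted p = 0.76), and neither was called. The 95% intervals of these differences were -1.5 to 0.32 in LSK and -1.83 to 0.01 in LK. The differences ran from -0.87 to -0.31 in LSK and from -1.21 to -0.62 in LK on leaving out 1 library.

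Skil encodes SnoN, a corepressor that binds Smad proteins at their target genes. In LSK its signal was 96.7 and 105 in WT and 34.6 and 58.7 in Ripk3-/-. The LK libraries gave 41.7 and 34.6 in WT and 11.7 and 9.0 in Ripk3-/-. No Ripk3-/- library reached the lower WT library in either population. Skil was called lower in LK, with a log2 fold change of -1.79 (SE 0.32, limma adjusted p = 0.00638), and was not called in LSK, where it was -1.14 (SE 0.32, limma adjusted p = 0.0646). The LK call was lost without WT library 1 (limma adjusted p = 0.254), Ripk3-/- library 1 (0.0579) or Ripk3-/- library 2 (0.09), and without the filter on low values (0.145). In LSK, Skil passed the threshold with quantile normalization (limma adjusted p = 0.0288) and with DESeq2 on the recovered reads (adjusted p = 0.0163), in 2 of 12 alternatives whose adjusted p ran from 0.0163 to 0.283. Its LSK value ran from -1.51 to -0.77 on leaving out 1 library.

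Of the 3 Id genes, Id3 had the clearest genotype difference. In LSK its signal was 103 and 114 in WT and 42.6 and 36.3 in Ripk3-/-. In LK it was 19.8 and 13.9 in WT and 9.70 and 11.9 in Ripk3-/-. The gap between the genotypes was wide in LSK, while in LK the closest libraries were 13.9 and 11.9. Id3 was called lower in LSK, with a log2 fold change of -1.44 (SE 0.32, limma adjusted p = 0.0207), and was not called in LK, where it was -0.58 (SE 0.33, limma adjusted p = 0.825). The LSK call was lost on leaving out any 1 of the 4 LSK libraries (limma adjusted p 0.0794 to 0.14), and the LK value ran from -0.82 to -0.34 on leaving out 1 LK library.

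Id1 and Id2 were not called in either population. The signal of Id1 was 39.3 and 66.4 in WT LSK, 42.8 and 39.0 in Ripk3-/- LSK, 7.27 and 10.8 in WT LK, and 5.52 and 8.26 in Ripk3-/- LK. The genotypes overlapped in both populations, and a single WT LSK library stood above the other 3 LSK libraries. The log2 fold change of Id1 was -0.32 in LSK (SE 0.40, limma adjusted p = 0.72) and -0.35 in LK (SE 0.41, limma adjusted p = 0.934). With 1 library left out the LK value ran from -0.61 to -0.09 and the LSK value from -0.69 to 0.05.

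The signal of Id2 was 57.1 and 51.2 in WT LSK, 51.0 and 59.0 in Ripk3-/- LSK, 22.8 and 10.8 in WT LK, and 27.6 and 19.6 in Ripk3-/- LK. The genotypes overlapped in both populations, and the WT LK pair was the most spread. The log2 fold change of Id2 was 0.02 in LSK (SE 0.35, 95% interval -0.71 to 0.75, limma adjusted p = 0.984) and 0.53 in LK (SE 0.35, 95% interval -0.20 to 1.26, limma adjusted p = 0.873). The LK value was 1.03 without WT LK library 1 and 0.025 without WT LK library 2.

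**Figure D2:**
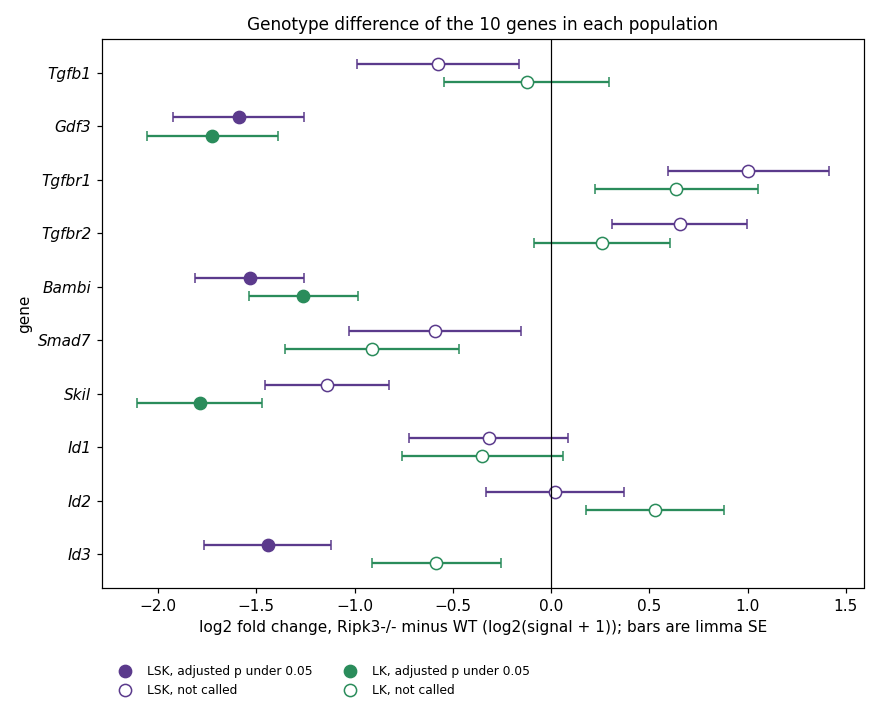
Log2 fold change of Ripk3-/- minus WT on the log2(signal + 1) scale for each of the 10 genes, in LSK (purple) and LK (green), with bars for the limma SE and filled points for an adjusted p under 0.05. Bambi and Gdf3 are filled in both populations, Id3 in LSK at -1.44 and Skil in LK at -1.79, and the receptors Tgfbr1 and Tgfbr2 lie to the right of 0 without being called.

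Counting libraries in place of calls, 6 of the 10 genes had both Ripk3-/- LSK libraries below both WT LSK libraries, as did 23.2% of all genes tested, and 2 of the 10 had both above, as did 21.4%. In LK, 5 of the 10 had both Ripk3-/- libraries below, as did 19.9% of all genes tested, and 2 had both above, as did 20.1%. The receptor genes Tgfbr1 and Tgfbr2 were the 2 that lay above in each population. Since the genes were picked with results known, these counts are given as descriptions.

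Whether the genotype difference itself differed between LSK and LK was tested as an interaction. None of the 10 genes was called by limma, where 0.358% of the 15901 genes tested were called, and 0 of the 10 had an unadjusted p under 0.05, as 10.1% of all genes tested had. The edgeR and DESeq2 tests on the recovered reads also called 0 of the 10. Id3 came nearest, with a difference of the log2 fold changes (LSK minus LK) of -0.86 (SE 0.46, unadjusted p = 0.0772 and adjusted p = 0.545 by limma). For Skil the difference was 0.65 (SE 0.45, limma adjusted p = 0.641). Id3 and Skil, each called in a single population, were thus not shown to have different genotype differences in the populations.

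The promoter windows of Id3 and Id2 are shown as those of 2 related target genes. In LSK cells Id3 was called lower, a call lost on leaving out any 1 library, and Id2 lay at a log2 fold change of 0.02, and the 2 genes were not tested against each other. The sequences are the 250 bases upstream of the annotated start in RefSeq, build GRCm38.p6, read 5′ to 3′ on the gene's strand. The window of Id3 is chr4:136143572-136143821 on the + strand and that of Id2 is chr12:25096093-25096342 on the - strand. Capitals mark matches to CAGAC on either strand (CAGAC or GTCTG, the letters of a Smad-binding element) and to GGCGCC, a GC-rich motif bound by Smads that reads the same on both strands. The motifs do not share letters in these windows.
Id3: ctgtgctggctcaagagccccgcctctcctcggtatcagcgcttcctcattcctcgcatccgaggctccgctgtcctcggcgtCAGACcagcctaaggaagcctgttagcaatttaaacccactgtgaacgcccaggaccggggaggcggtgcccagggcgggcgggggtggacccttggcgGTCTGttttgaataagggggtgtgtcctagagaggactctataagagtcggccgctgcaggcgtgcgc
Id2: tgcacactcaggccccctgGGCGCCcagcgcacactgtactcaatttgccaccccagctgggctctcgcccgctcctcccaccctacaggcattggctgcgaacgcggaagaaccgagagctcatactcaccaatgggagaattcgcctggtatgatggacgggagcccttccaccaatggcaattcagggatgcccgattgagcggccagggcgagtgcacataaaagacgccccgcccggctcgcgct

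The Id3 window held 2 matches to CAGAC and 0 to GGCGCC, and the Id2 window held 0 and 1. Of 32817 windows of the same length, 42.2% held CAGAC and 9.59% held GGCGCC. RefSeq entries were used for 5 of the 10 genes, since the promoter sequences at hand held none for Bambi, Gdf3, Smad7, Skil or Id1. The Tgfb1 window held neither motif, the Tgfbr2 window held 1 CAGAC, and of the 2 Tgfbr1 windows the first held 1 GGCGCC and the second 1 CAGAC. These matches describe letters in the windows, of which CAGAC is common among promoters and GGCGCC less so, and no binding was measured.

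Next, LSK and LK cells were compared within each genotype, for which the recovered reads of all 8 libraries were put on 1 TMM scale as CPM. In WT, 5 of the 10 genes were called, all higher in LSK, where 23.9% of the 15950 genes tested were called and 9.16% were called higher. In Ripk3-/- cells 4 of the 10 were called, all higher in LSK, where 20.2% of the 15237 genes tested were called and 7.95% were called higher. The median log2 fold change of the 10 (LSK minus LK) was 0.73 in WT and 0.61 in Ripk3-/-, beside 0.08 and 0.00 over all genes tested. For the tested genes of a further list of 57 TGF-beta and BMP genes, described below, it was 1.12 and 0.81. The comparisons between populations and those between genotypes share libraries.

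**Figure D3:**
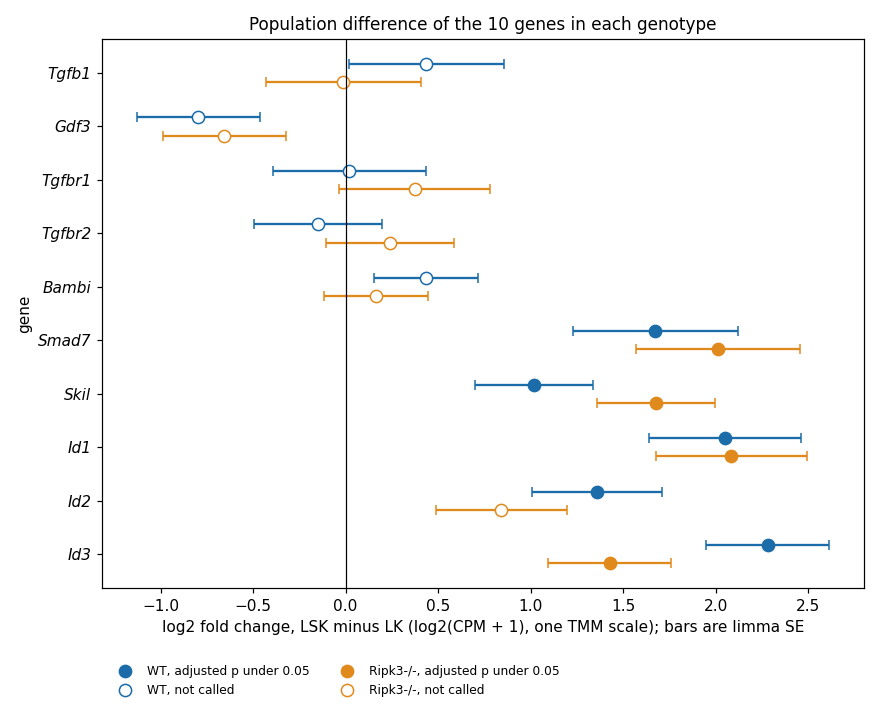
Log2 fold change of LSK minus LK on the log2(CPM + 1) scale (1 TMM scale over 8 libraries) for each of the 10 genes, in WT (blue) and Ripk3-/- (orange), with bars for the limma SE and filled points for an adjusted p under 0.05. Smad7, Skil, Id1 and Id3 are filled in both genotypes and Id2 in WT, all to the right of 0, while Gdf3 lies to the left without being called.

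The Id genes and the inhibitors carried these differences. Id3 had 90.7 and 100 CPM in WT LSK and 22.5 and 15.7 CPM in WT LK, a log2 fold change of 2.28 (SE 0.33, limma adjusted p = 3.32e-05). In Ripk3-/- cells it had 37.7 and 31.7 CPM in LSK and 11 and 13.6 CPM in LK, a log2 fold change of 1.43 (SE 0.33, limma adjusted p = 0.00327). In each genotype every LSK library was above every LK library. Id1 had 34.5 and 58.3 CPM in WT LSK and 8.29 and 12.2 CPM in WT LK, a log2 fold change of 2.05 (SE 0.41, limma adjusted p = 0.000972). The Ripk3-/- value of Id1 was 2.08 (SE 0.41, limma adjusted p = 0.000718). The calls of Id1 and Id3 held on leaving out any 1 of the 4 libraries compared, in both genotypes.

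Smad7 had 35.3 and 34.3 CPM in WT LSK and 12.9 and 8.10 CPM in WT LK, a log2 fold change of 1.67 (SE 0.45, limma adjusted p = 0.0093). Skil had 84.9 and 91.8 CPM in WT LSK and 47.6 and 39.0 CPM in WT LK, a log2 fold change of 1.02 (SE 0.32, limma adjusted p = 0.0242). The Ripk3-/- log2 fold change was 2.01 for Smad7 (SE 0.44, limma adjusted p = 0.00216) and 1.68 for Skil (SE 0.32, limma adjusted p = 0.000544). Both inhibitors were higher in every LSK library than in every LK library of the same genotype. The Ripk3-/- calls held on leaving out any 1 library. In WT, the Skil call was lost on leaving out any 1 of the 4 libraries (limma adjusted p 0.0721 to 0.142), and the Smad7 call without LSK library 1 (0.0521), LSK library 2 (0.0524) or LK library 2 (0.0885).

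Id2 had 50.1 and 44.9 CPM in WT LSK and 26.0 and 12.2 CPM in WT LK, a log2 fold change of 1.36 (SE 0.35, limma adjusted p = 0.00778). That call was lost without WT LSK library 1 (limma adjusted p = 0.0548) or WT LK library 2 (0.137), and without the latter the log2 fold change was 0.84. In Ripk3-/- cells Id2 was at 0.84 (SE 0.35, limma adjusted p = 0.101) and was not called. Gdf3 was the gene whose LSK libraries lay below its LK libraries in both genotypes. Its nearest Ripk3-/- libraries were almost level, at 19.6 CPM in LSK library 2 and 20.0 CPM in LK library 1. Its log2 fold change was -0.80 in WT (SE 0.33, limma adjusted p = 0.0836) and -0.66 in Ripk3-/- (SE 0.33, limma adjusted p = 0.184), and Gdf3 passed the threshold in Ripk3-/- without LK library 1, at -1.25 (limma adjusted p = 0.0224), but was at -0.06 without LK library 2 (0.957). Bambi, Tgfb1, Tgfbr1 and Tgfbr2 were not called in either genotype, with log2 fold changes between -0.15 and 0.44.

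Levels can be compared between genes once divided by exon length, here as CPM per kilobase (mean ± SD, n = 2), where means closer than the larger SD are said not to differ beyond their spread. In WT LSK the highest was Id3 at 53.3 ± 3.66, followed by Id1 at 40.0 ± 14.5, and these did not differ beyond their spread. Gdf3 at 24.6 ± 4.76 and Bambi at 23.8 ± 2.34 came next and did not differ beyond their spread, and Id2 at 19.5 ± 1.51 lay below them. Skil at 9.12 ± 0.506 and Smad7 at 7.70 ± 0.16 were lower. Tgfb1 followed at 4.71 ± 1.06, and Tgfbr2 at 3.20 ± 1.38 and Tgfbr1 at 2.72 ± 1.5 were the lowest and did not differ beyond their spread.

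In WT LK the order was led by Gdf3 at 42.6 ± 2.51 CPM per kilobase and Bambi at 17.6 ± 1.28. Id3, Id1 and Id2 followed at 10.7 ± 2.71, 8.84 ± 2.40 and 7.84 ± 4.0, and did not differ beyond their spread. The remaining 5 genes lay between 2.32 and 4.46, and the highest of them, Skil, did not differ from Id2 beyond their spread. In Ripk3-/- LSK the 3 Id genes came first, with Id1 at 31.0 ± 2.29, Id2 at 19.9 ± 1.85 and Id3 at 19.4 ± 2.37. Bambi was at 8.44 ± 3.23 and Gdf3 at 7.88 ± 0.293. Id2 and Id3 did not differ beyond their spread, nor did Bambi and Gdf3. In Ripk3-/- LK, Gdf3 was first at 13.8 ± 7.82, but did not differ beyond its spread from Id2 at 11 ± 2.59, Bambi at 7.32 ± 1.66, Id3 at 6.87 ± 1.01 or Id1 at 6.78 ± 1.95, and Skil at 1.22 ± 0.22 and Smad7 at 1.11 ± 0.36 were last and did not differ beyond their spread.

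After each population was centred on its own mean, Bambi varied over the 8 libraries with Gdf3 (Pearson r = 0.93) and Id3 (r = 0.91), and Smad7 with Skil (r = 0.88). Tgfbr1 varied the other way, with r = -0.81 against both Bambi and Id3. These values describe 8 libraries that share the genotype difference and have no p. Over 13746 genes, the gene most like Bambi was Atf3 (r = 0.99), followed by Dctn2 and Ufc1 (both r = 0.98). Gdf3 was most like Txn2, Ift20 and Nr4a1 (all r = 0.99), and Id3 was most like Hnrnpa1, Ubb and Cdkn1a (all r = 0.99).

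The genes most like Skil were Sipa1l2 (r = 0.98), Rgs2 and Mid2 (both r = 0.97), and those most like Smad7 were Osgep (r = 0.99), Zfp622 (r = 0.97) and 4833418N02Rik (r = 0.96). Id1 was most like Ublcp1, Trmt112 and Vpreb1 (all r = 0.97), and Id2 was most like Ap3m1, Pbk (both r = 0.96) and Nusap1 (r = 0.94). Likeness was computed for the genes called in any comparison, and the highest of 13746 such values over 8 libraries is high by selection.

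Atf3 also belongs to a list of immediate-early genes, which respond to cell handling. Its signal was 528 and 557 in WT LSK and 236 and 185 in Ripk3-/- LSK, and 205 and 242 in WT LK and 87.3 and 110 in Ripk3-/- LK. Atf3 was called lower in both populations, with a log2 fold change of -1.37 in LSK (SE 0.19, limma adjusted p = 0.000226) and -1.18 in LK (SE 0.19, limma adjusted p = 0.00275). The LK call of Atf3 was lost without Ripk3-/- LK library 1 (limma adjusted p = 0.175) and without the filter (0.12). Of the 8 listed genes, 1 was called in LSK and 2 in LK, where 2.16% and 0.473% of all genes tested were called. The other gene called in LK was Junb at -0.88 (SE 0.17, limma adjusted p = 0.0146). The Junb call was lost without WT LK library 1 and without Ripk3-/- LK library 1. It was also lost without the filter (limma adjusted p = 0.498). The summed signal of the list, with Fos the most abundant, was 20298 and 21463 in WT LSK and 24573 and 20720 in Ripk3-/- LSK, and 9380 and 9116 in WT LK and 7734 and 9520 in Ripk3-/- LK. The median log2 fold change of the 8 listed genes was 0.07 in LSK and -0.21 in LK. The part of these genes in the differences of the 10 was not tested.

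Some granulocyte and monocyte markers differed between the genotypes as well. Of 10 markers, 5 were called higher in Ripk3-/- LSK (Ltf, Camp, Ngp, S100a8 and S100a9) and 4 in Ripk3-/- LK (the same without S100a8). Of all genes tested, 2.16% were called in LSK and 0.473% in LK, in either direction. Mpo, Elane, Prtn3, Csf1r and Ly86 were called in neither population. The median log2 fold change of the 10 markers was 0.92 in LSK and 0.12 in LK. Ltf, a neutrophil granule protein, had a signal of 34.8 and 25.8 in WT LSK and 213 and 203 in Ripk3-/- LSK, and of 35.3 and 36.9 in WT LK and 218 and 228 in Ripk3-/- LK. The summed signal of the list, with Mpo the most abundant, was 8031 and 9086 in WT LSK against 8925 and 7831 in Ripk3-/- LSK, and 70977 and 62308 in WT LK against 49371 and 64776 in Ripk3-/- LK. The S100a9 call in LK was lost without WT library 1 (limma adjusted p = 0.115), Ripk3-/- library 1 (0.193) or Ripk3-/- library 2 (0.0581), and without the filter (0.152). None of the 10 markers was at 0 in a library. Their part in the differences of Bambi, Gdf3, Skil and Id3 was not tested.

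Of 8 markers of stem and progenitor cells, 1 was called higher in Ripk3-/- LSK and none was called in LK. Of all genes tested, 2.16% were called in LSK and 0.473% in LK. The gene called was Flt3, which marks multipotent progenitors more than stem cells. Its signal was 555 and 473 in WT LSK and 874 and 886 in Ripk3-/- LSK. The summed signal of the list, with Flt3 the most abundant in LSK and Kit in LK, was 1543 and 1480 in WT LSK against 2266 and 2245 in Ripk3-/- LSK, and 351 and 348 in WT LK against 477 and 445 in Ripk3-/- LK, with a median log2 fold change of 0.50 in LSK and 0.23 in LK. Procr was at 0 in WT LK library 1. The part of these markers in the differences of the 10 genes was not tested. The Flt3 call was lost on leaving out any 1 LSK library (limma adjusted p 0.0724 to 0.165) and without the filter (0.0725).

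None of the tested markers of erythroid, megakaryocyte, B cell, T cell, macrophage, endothelial or stromal cells was called by limma between the genotypes in either population, and in LK 3 of 5 B cell, 3 of 5 T cell and 4 of 5 macrophage markers had enough signal to be tested. In LK the genotypes did not overlap in the summed signal of 6 of these 7 lists, the Ripk3-/- sums being lower for the erythroid, T cell, megakaryocyte and B cell markers and higher for the macrophage and stromal markers, and in LSK they did not overlap for 3 of 7, being lower for the erythroid and stromal markers and higher for the macrophage markers. Of single genes tested, 19.9% lay lower and 20.1% higher without overlap in LK, and 23.2% and 21.4% in LSK. The LK sum of 5 erythroid markers, with Car1 the most abundant, was 1469 and 1227 in WT against 958 and 998 in Ripk3-/-, that of 5 T cell markers was 7.0 and 7.86 in WT against 2.47 and 1.99 in Ripk3-/-, and that of 5 macrophage markers, with Vcam1 the most abundant, was 72.2 and 69.8 in WT against 108 and 108 in Ripk3-/-. Cd3d, Cd8a and Cd5l were each at 0 in at least 1 LK library, and Cd8a and Cd5l also in LSK. In LSK these sums were 160 and 134 in WT against 133 and 133 in Ripk3-/- for the erythroid markers, 21.7 and 33.1 in WT against 24.4 and 18.6 in Ripk3-/- for the T cell markers, and 31.3 and 37.1 in WT against 45.7 and 39.2 in Ripk3-/- for the macrophage markers.

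The 5 megakaryocyte markers, with Pf4 the most abundant, summed to 138 and 232 in WT LSK, 155 and 132 in Ripk3-/- LSK, 217 and 222 in WT LK and 177 and 215 in Ripk3-/- LK. The 5 B cell markers, with Cd79b the most abundant, summed to 90.5 and 74.1 in WT LSK, 96.3 and 64.5 in Ripk3-/- LSK, 66.5 and 64.1 in WT LK and 46.7 and 61.6 in Ripk3-/- LK, with Ebf1 at 0 in at least 1 library of each population and Pax5 in LSK. The 5 endothelial markers, with Pecam1 the most abundant, summed to 165 and 139 in WT LSK, 165 and 137 in Ripk3-/- LSK, 106 and 107 in WT LK and 99.6 and 160 in Ripk3-/- LK. The 5 stromal markers, with Pdgfrb the most abundant, summed to 80.2 and 56.8 in WT LSK, 49.5 and 33.5 in Ripk3-/- LSK, 26.0 and 28.6 in WT LK and 31.1 and 31.9 in Ripk3-/- LK. Median log2 fold changes in LSK and LK were -0.38 and -0.40 for the erythroid markers tested and -0.34 and -0.26 for the megakaryocyte markers. They were -0.84 and -0.35 for the B cell, -0.31 and -0.84 for the T cell and 0.31 and 0.13 for the macrophage markers. For the endothelial markers they were -0.44 and 0.28, and for the stromal markers -0.52 and 0.48. The part of these cell types in the differences of the 10 genes was not tested.

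The wider pathway was described with a list of 57 further TGF-beta and BMP genes, of which 44 had enough signal to be tested in LSK and 36 in LK. A single gene, Klf10, was called in LSK and none in LK, where 2.16% and 0.473% of all genes tested were called. An unadjusted p under 0.05 by limma was found for 6 of the 44 in LSK, where 17.9% of all genes tested had one, and for 5 of the 36 in LK, where 6.56% had one. In LK edgeR called 0 of the 36 and 60 of all genes tested, and DESeq2 called 2 of the 36 and 177 of all genes tested, the 2 being Klf10 at -0.70 (adjusted p = 0.0278) and Ltbp3 at -1.41 (adjusted p = 0.0165). The median log2 fold change of the list was -0.06 in LSK and 0.03 in LK, near the -0.01 and 0.01 of all genes tested. Klf10, a TGF-beta-inducible transcription factor, had a signal of 506 and 503 in WT LSK and 288 and 206 in Ripk3-/- LSK, a log2 fold change of -1.05 (SE 0.19, limma adjusted p = 0.0034). The Klf10 call was lost without WT LSK library 1 (limma adjusted p = 0.0605), WT LSK library 2 (0.0735) or Ripk3-/- LSK library 2 (0.091). In LK, Klf10 had a signal of 224 and 193 in WT and 138 and 120 in Ripk3-/-, a log2 fold change of -0.69 (SE 0.19, limma adjusted p = 0.165).

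**Figure D4:**
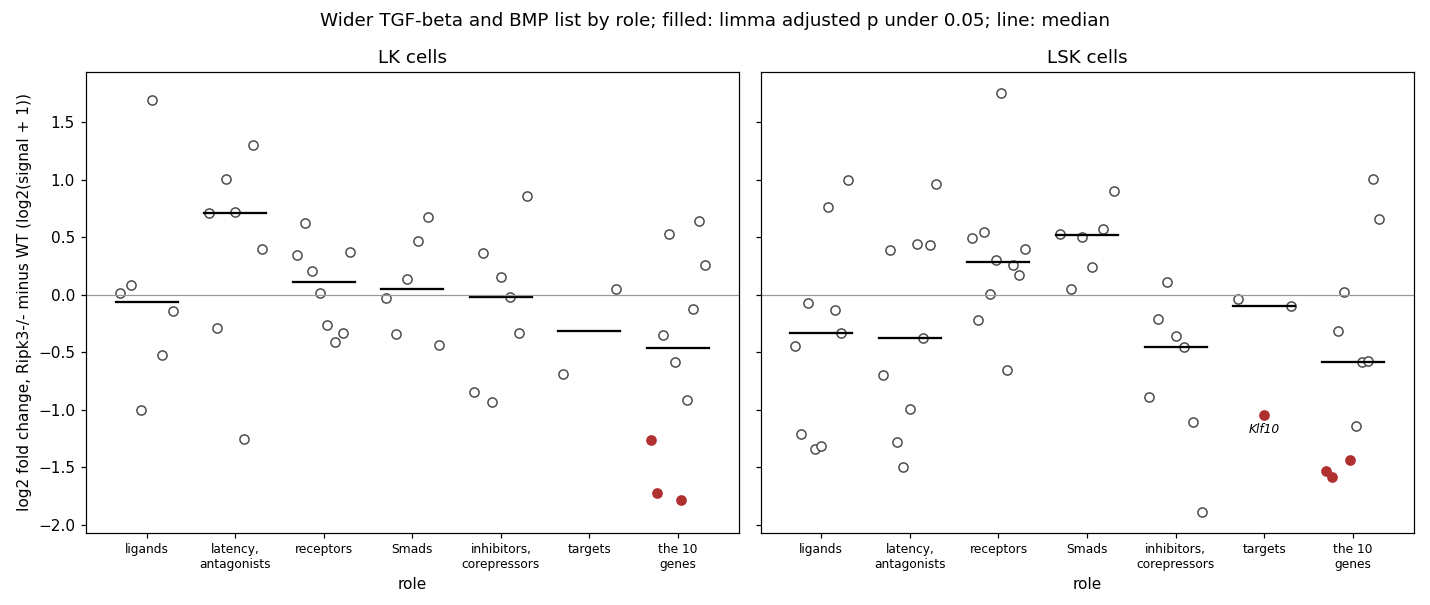
Log2 fold change of Ripk3-/- minus WT on the log2(signal + 1) scale for the tested genes of the wider list by role and for the 10 genes, in LK (left) and LSK (right), with a line for each median and filled points for a limma adjusted p under 0.05. In the wider list the filled point is Klf10 at -1.05 in LSK, and the medians of the 10 genes lie at -0.47 and -0.58.

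By role, the median log2 fold change in LSK was 0.51 for the 6 Smads tested, with 0 of 6 below 0, and -0.45 for the 7 inhibitors and corepressors, with 6 of 7 below 0, where 50.6% of all genes tested were below 0. In LK these medians were 0.05, with 3 of 6 below 0, and -0.02, with 4 of 7 below 0, where 49.0% of all genes tested were below 0. The medians in LSK and LK were -0.34 and -0.07 for the ligands, -0.38 and 0.71 for the latency proteins and extracellular antagonists, 0.28 and 0.11 for the receptors and -0.10 and -0.32 for the targets. Below 0 were 7 of 9 ligands, 5 of 9 latency proteins and antagonists, 2 of 10 receptors and 3 of 3 targets in LSK, and 3 of 6, 2 of 7, 3 of 8 and 1 of 2 in LK. None of the Smads was called in either population. Some of the listed roles were loose. The Smads included the inhibitory Smad6, and the inhibitors and corepressors included Zfyve9, which presents Smads to the receptors. Rgmb, a BMP co-receptor, was listed with the latency proteins and antagonists. The medians of these roles thus mix genes that promote signaling and genes that hold it back. Among the most abundant genes of each role per kilobase, Smad2 had a log2 fold change of 0.05 in LSK and -0.35 in LK, and Smad4, the shared partner of the receptor-activated Smads, 0.24 and 0.47. The accessory receptors Eng and Tgfbr3 were at 0.17 and 0.40 in LSK and -0.33 and 0.37 in LK. The corepressor Tgif1 was at -0.45 and -0.02, and the ubiquitin ligase Smurf2 at -0.36 and 0.16. The latency proteins Nrros and Ltbp3 were at 0.43 and 0.44 in LSK and 0.40 and -1.26 in LK. The ligands Gdf15 and Bmp4 were at -1.34 and -0.44 in LSK and -1.01 and 0.01 in LK, and the target Tgfbi at -0.10 and 0.05. By limma none of these 11 genes was called, with adjusted p between 0.121 and 0.999. Gdf15 was called in LSK when the 4 LSK libraries were fitted alone (limma adjusted p = 0.0408).

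Between populations, 7 of 42 tested genes of the wider list were called in WT, all higher in LSK, where 23.9% of all genes tested were called and 9.16% were called higher. In Ripk3-/- cells 12 of 43 were called, 11 of them higher in LSK, where 20.2% were called and 7.95% were called higher. On leaving out 1 library 2 to 5 were called in WT and 3 to 6 in Ripk3-/-, where 4 were called without the filter and 7 with a pseudocount of 0.1, and DESeq2 called 11 in WT. Of the 15950 genes tested, 1461 were higher and 2353 lower in WT LSK, and quantile normalization changed this split to 954 and 964. Of 15237 in Ripk3-/- cells, 1212 were higher and 1860 lower, against 1170 and 1182 with quantile normalization. The directions given above for Smad7, Skil, Id1, Id2 and Id3 were the same with it. The median log2 fold change of the wider list (LSK minus LK) was 1.12 in WT and 0.81 in Ripk3-/-. These medians were 0.73 and 0.61 for the 10 genes, and 0.08 and 0.00 over all genes tested.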

How the data were processed

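Libraries of sorted bone marrow cells were made with a TruSeq stranded mRNA kit. Per the submitters' processing notes, the authors aligned reads with TopHat to mm9, and the counter and gene annotation are not given in the sources used here. The deposited values are headed FPKM, but they are signal: reads per gene times 1 step per library, equal to TMM-scaled CPM made separately for LSK and LK (factors matched to within 4.3e-09), with no length division. Whole reads were recovered, with 100% of values whole within 0.01 (9782166 to 16280811 reads per library). No other column was used.

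Genes were tested with limma 3.58.1 (R 4.3.3) with an intensity trend on log2(signal + 1), with the 4 group means in 1 fit of all 8 libraries, a mean of at least 1 over the libraries compared, and Benjamini-Hochberg adjustment over all genes tested. Population comparisons used CPM on 1 TMM scale (edgeR 4.0.16). The fit was tested on simulated data. Alternatives were a pseudocount of 0.1, no filter, a mean of at least 5, quantile normalization, edgeR and DESeq2 1.42.0 on recovered reads, a replicate block, separate fits and leaving out each library. edgeR called 60 genes in LK and 237 in LSK.

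Members and lists were chosen with earlier results of these data known. Named genes were the 10 members, wider-list genes called between genotypes, the 2 most abundant per role, label and sex checks, markers, and the 3 genes most like each called member. Other genes named for a call in an alternative were chosen after their values were seen. Exon lengths came from GENCODE M21 and promoters from RefSeq. Hba-a1 was not used here.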

Additional observations from a re-analysis of the deposited data

How the results depend on the processing

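Of 610 values of the 10 genes under alternatives, 540 kept their direction and side of the threshold, 38 kept their direction and were no longer called, 3 became called and 29 reversed, all 29 from differences not called at first. The called genotype differences kept their direction in every alternative run. Of 275 values of the called list, marker and sex-check genes, 250 held and 25 were no longer called. With 2 libraries a group, leaving out 1 leaves a lone library assumed to vary like the other groups. Unless fewer samples or more genes tested account for a change, the cause was not tested.

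Between genotypes in LK, 66 genes were called, against 9 without the filter, 36 with quantile normalization, 177 with DESeq2, 125 in the separate fit and 13 to 101 on leaving out 1 library. Of the 10 genes 3 were called, against 0 without the filter, 1 with quantile normalization and 0 to 1 on leaving out 1 library. Of the wider list 0 were called, against 2 with DESeq2. In LSK, 363 genes were called, against 198 without the filter, 237 with edgeR, 617 with DESeq2, 195 in the separate fit and 99 to 191 on leaving out 1 library. Of the 10 genes 3 were called, against 0 to 1 on leaving out 1 library. Of the wider list 1 was called, against 2 without the filter (Klf10 and Acvrl1, the latter at 1.76), 2 in the separate fit and 0 to 1 on leaving out 1 library. The interaction called 57 genes, against 3 without the filter, 154 with DESeq2 and 17 to 90 on leaving out 1 library.

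Between populations in WT, 3814 genes were called, against 1918 with quantile normalization and 1502 to 2634 on leaving out 1 library. Of the 10 genes 5 were called, against 2 to 4 on leaving out 1 library. Of the wider list 7 were called, against 11 with DESeq2 and 2 to 5 on leaving out 1 library. For Ripk3-/- the count was 3072 genes called, against 1489 to 2474 on leaving out 1 library. Of the wider list 12 were called, against 7 with a pseudocount of 0.1, 4 without the filter and 3 to 6 on leaving out 1 library.

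Reversed log2 fold changes in LSK between genotypes were those of Id2, at -0.135 with quantile normalization and -0.0116 with DESeq2 (-0.0813 to 0.123 on leaving out 1 library), and Id1 (-0.688 to 0.0535 on leaving out 1 library). In LK, Tgfb1 ran from -0.49 to 0.24 on leaving out 1 library. In the interaction, Gdf3 was at -0.324 with quantile normalization, -0.0134 with edgeR and -0.028 with DESeq2 (-0.45 to 0.72 on leaving out 1 library) and Id1 at -0.14 with quantile normalization (-0.34 to 0.40). There, leaving out 1 library gave -0.65 to 0.11 for Bambi, -0.20 to 0.93 for Tgfbr1 and -0.0427 to 0.834 for Tgfbr2. Between populations in WT, Tgfbr1 was at -0.0828 with quantile normalization (-0.54 to 0.58 on leaving out 1 library) and Tgfbr2 ran from -0.58 to 0.29. For Ripk3-/-, Tgfb1 was at 0.0106 with edgeR and 0.0155 with DESeq2 (-0.39 to 0.37 on leaving out 1 library) and Bambi ran from -0.23 to 0.56.

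Libraries of the same replicate number did not deviate together (r of deviations -0.14 to 0.05), and whether any libraries share an origin was not tested. With the replicate block, 64 genes were called in LK, 317 in LSK, 53 in the interaction, 3598 between populations in WT and 2940 in Ripk3-/-, and of the 10 genes 2, 3, 0, 5 and 4. With the pairing of the Ripk3-/- LSK and LK numbers crossed, chosen after seeing the data, 3196 genes and 4 of the 10 were called.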
